A study of Mus musculus with 7 samples.

Results

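Mmp14 and 7 genes related to it by function were followed in the thymus of wild type mice and of 2 mouse mutants, each with a changed DNA-binding zinc finger of Ikaros. The 8 genes were the metalloproteinases Mmp14, Mmp2, Mmp9, Adam10 and Adam17 and the tissue inhibitors Timp1, Timp2 and Timp3, taken by symbol from a table of 16734 genes, in which all 8 were found. Mmp14 was chosen by its measured RPKM, which is high in ZnF4-/- thymus. Its values in the comparisons with that mutant are therefore given as a description, with no test. The other 7 were chosen as its relatives, inhibitors and fellow surface proteases.

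Polyadenylated RNA of the whole thymus, taken at an age of 4 weeks, dispersed to single cells and strained, was sequenced in 7 libraries. The wild type group was C57BL/6 and had 3 libraries, numbered 1, 2A and 2B. The mutant groups were Ikaros ZnF1-/- and Ikaros ZnF4-/-, mutant in both copies for the first or the fourth zinc finger, with 2 libraries each, numbered 1 and 2. Ikaros, the product of Ikzf1, is a transcription factor of lymphocyte development. The sources used here do not give the mutants' strain background or say which libraries came from separate animals. A p therefore measures the spread between libraries, which may be technical.

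Libraries numbered 1 were read at 76 bp and the others at 50 bp. Xist, the RNA that coats the inactive X in female cells, lay between 90.6 and 109 RPKM (reads scaled to exon length in kilobases and to mapped reads per library) where reads were 76 bp long, and between 0.01 and 0.03 RPKM elsewhere, so Xist went with the read length. The Y-linked gene Ddx3y showed the reverse, at 0 to 0.01 RPKM against 13.2 to 17.4 RPKM. By these genes the libraries numbered 1 had the female pattern and the others the male pattern. The number thus marks sex as well as read length, and these cannot be told apart. Because the 3 groups share the numbering, each difference was also read within a number, and a fit with the number as a block stands beside the unblocked fit where it changes a call. Thymocyte genes were abundant in every library. The 7 markers Cd3e, Cd4, Cd8a, Cd8b1, Ptcra, Rag1 and Lck summed to 3160 to 4062 RPKM in wild type, 3480 to 3954 RPKM in ZnF1-/- and 2728 to 3219 RPKM in ZnF4-/-. Within each number the sum was lowest in ZnF4-/-. The markers did not all follow it. Cd4, Cd8a, Cd8b1, Rag1 and Lck had lower means in ZnF4-/- than in wild type. Cd3e and Ptcra went the other way, at 462 and 34.9 RPKM in ZnF4-/- against 406 and 27.0 RPKM in wild type. Of the 7 tested markers 0 passed against wild type, where 2.54% of all tested genes passed in ZnF4-/- and 0.0857% in ZnF1-/-. In the blocked fit of ZnF4-/-, which called 8.22% of all tested genes, Cd8a passed as lower (adjusted p = 0.0479 by limma). The part of the lower thymocyte sum in the other differences was not tested.

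Matrix metalloproteinases are zinc-dependent proteases that are made as inactive precursors and cut proteins outside the cell. Mmp14 encodes MT1-MMP, which sits in the plasma membrane, cuts collagen and surface proteins, and activates the precursor of the gelatinase MMP2 in a complex that uses TIMP2 as a bridge. ADAM10 and ADAM17 are membrane-bound sheddases that release the outer parts of surface proteins. ADAM10 makes the ligand-dependent cut in Notch receptors, on which T cell development in the thymus relies, and ADAM17 releases tumour necrosis factor. TIMP proteins block these enzymes with differing preference, and TIMP3 is the one known to inhibit ADAM17.

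Mmp14 (chromosome 14, 55050441 to 55060095, plus strand, mouse build mm9) was low in wild type and ZnF1-/- thymus and high in both ZnF4-/- libraries. Its level was 1.47, 1.99 and 2.71 RPKM in wild type replicates 1, 2A and 2B, 1.44 and 2.81 RPKM in ZnF1-/- replicates 1 and 2, and 41.8 and 74.3 RPKM in ZnF4-/- replicates 1 and 2. The ZnF4-/- values lay far above all others, whereas the ZnF1-/- values overlapped those of wild type. Wild type averaged 2.06 ± 0.623 RPKM (SD, n = 3). The ZnF1-/- mean was 2.13 ± 0.969 RPKM (SD, n = 2), and that of ZnF4-/- was 58.1 ± 23.0 RPKM (SD, n = 2), a ratio of 28.2 to wild type. In bulk RNA such a difference cannot be told apart into more cells that carry the transcript and more transcript per cell.

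On the scale of log2(RPKM + 0.5), which was used for every fold change here and understates the change of low genes, Mmp14 was 4.49 ± 0.34 (SE) higher in ZnF4-/- than in wild type. Tests covered the 10498 genes averaging 1 RPKM or more, and a gene passed at an adjusted p under 0.05. Among these genes 1 had a larger fold change, so that Mmp14 ranked at place 2. Within replicate number 1 the difference was 4.43 and within number 2 it was 4.73. Both numbers, which differ in read length and sex, thus gave nearly the same size. Against ZnF1-/-, a comparison that shares the ZnF4-/- libraries, the difference was 4.47, with 4.45 and 4.50 within the numbers, and Mmp14 ranked at place 1. In ZnF1-/- against wild type the log2 fold change was 0.02 ± 0.34 (adjusted p = 1.00 by limma), and the within-number values were -0.02 and 0.23. That value turned to -0.16 without wild type replicate 1 and to -0.37 without ZnF1-/- replicate 2.

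**Figure D1:**
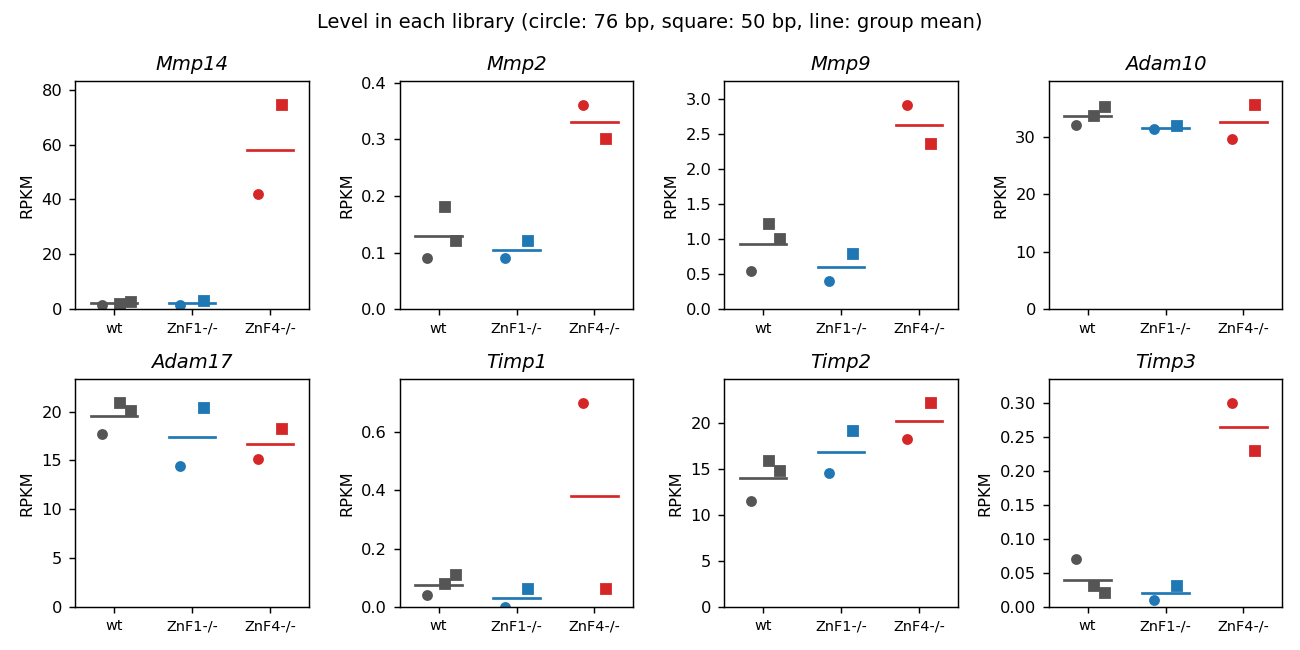
RPKM of the 8 genes in each library, with circles for 76 bp and squares for 50 bp libraries and a line at each group mean. Mmp14 was at 41.8 and 74.3 RPKM in ZnF4-/- and at 2.81 RPKM or less elsewhere, while Adam10 and Adam17 overlapped between wild type and ZnF4-/-.

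The promoter windows of Mmp14, Adam10 and Timp2 are shown because these genes differ in their levels, Mmp14 being far higher in ZnF4-/-, Adam10 overlapping between ZnF4-/- and wild type and Timp2 slightly higher, and because Ikaros binds sites with a GGGAA core. The sequences are RefSeq windows, from 250 bases before to 50 after the annotated start, taken from the table for build GRCm38.p6 and matched without mismatch, once each, to mm9. Capitals mark GGGAA on either strand, so that TTCCC is the same letters read on the opposite strand.
Mmp14, chr14:55050185-55050484, plus strand: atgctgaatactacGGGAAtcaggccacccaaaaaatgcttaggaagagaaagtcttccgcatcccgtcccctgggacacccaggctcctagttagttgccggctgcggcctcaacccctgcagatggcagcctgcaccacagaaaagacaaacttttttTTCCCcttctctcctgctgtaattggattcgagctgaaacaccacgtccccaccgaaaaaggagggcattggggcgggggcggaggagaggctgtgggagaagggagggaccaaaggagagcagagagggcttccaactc
Adam10, chr9:70526539-70526838, plus strand: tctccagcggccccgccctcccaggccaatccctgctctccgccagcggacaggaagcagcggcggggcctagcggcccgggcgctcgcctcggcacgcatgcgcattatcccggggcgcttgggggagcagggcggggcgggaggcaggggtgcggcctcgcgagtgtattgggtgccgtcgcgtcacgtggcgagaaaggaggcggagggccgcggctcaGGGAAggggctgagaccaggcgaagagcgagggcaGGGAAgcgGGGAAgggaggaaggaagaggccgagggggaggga
Timp2, chr11:118216676-118216975, minus strand: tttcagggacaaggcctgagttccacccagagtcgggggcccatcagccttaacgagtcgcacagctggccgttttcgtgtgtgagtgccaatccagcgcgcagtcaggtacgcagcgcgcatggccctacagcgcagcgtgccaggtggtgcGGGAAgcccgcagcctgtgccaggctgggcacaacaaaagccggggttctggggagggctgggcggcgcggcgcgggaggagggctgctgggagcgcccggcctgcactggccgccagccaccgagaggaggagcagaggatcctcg

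The Mmp14 window held GGGAA 2 times, that of Adam10 3 times and that of Timp2 1 time. In Mmp14 the matches began at -236 and -90 from the start, in Adam10 at -28, 8 and 16, and in Timp2 at -97. Windows were at hand for 6 of the 8 genes, namely these and Adam17, Timp1 and Timp3, and GGGAA was found in 6 of 6. It occurs on either strand in 62.7% of 32851 mouse promoter windows, and at least 2 times in 27.1%. The longer form TGGGAA, which contains GGGAA, was found in 1 of the 6 windows, that of Timp1, against 25.6% of all windows. These matches describe letters in a short window and not binding. Mmp2 and Mmp9 have no window here.

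The genes beside Mmp14 on chromosome 14 were mostly level. The nearest 5 genes of the table on either side lay 1.85 to 177 kb away, and 9 of these 10 were tested. Of the 9, 1 rose and 0 fell in ZnF4-/- against wild type, where 2.54% of all tested genes were called, 2.24% as higher and 0.305% as lower, and their median log2 fold change was 0.06. The neighbour that rose was Jub, 126 kb away, which encodes the LIM domain protein Ajuba. It reached the filter only through ZnF4-/-, with a mean of 0.726 RPKM over the other 5 libraries, so the count of 1 is no support for a change around Mmp14. Jub was at 1.90 to 3.30 RPKM in ZnF4-/- against 0.40 to 0.59 RPKM for wild type (1.57 ± 0.25 on the log2 scale, adjusted p = 0.0233 by limma). With no filter the adjusted p was 0.0258. The call was lost without wild type replicate 2A (adjusted p = 0.0721) or 2B (0.0933).

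Slc7a7, an amino acid transporter gene 17.6 kb from Mmp14, was at 2.49 to 3.26 RPKM against 1.25 to 1.45 RPKM (0.87 ± 0.21, adjusted p = 0.102 by limma, 0.00979 in the blocked fit). The closest neighbour, the mitochondrial ribosomal protein gene Mrpl52, was at 53.5 to 64.8 RPKM against 22.4 to 55.8 RPKM (0.58 ± 0.44, adjusted p = 0.872). Lrp10, Prmt5, Haus4, Oxa1l, Abhd4 and Dad1 had log2 fold changes from -0.45 to 0.33, none of which passed in either fit. Rem2 was not tested, at 0.41 to 1.09 RPKM in ZnF4-/- against 0.15 to 0.29 RPKM in wild type.

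**Figure D2:**
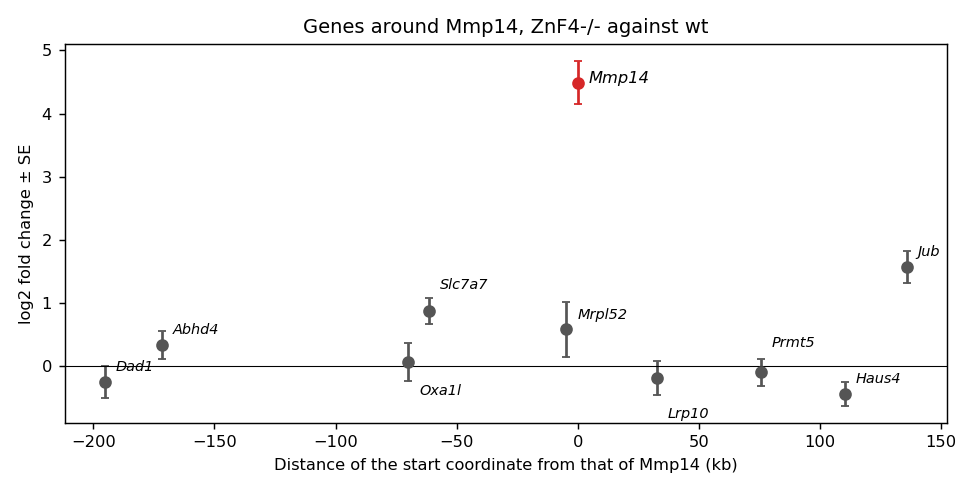
Log2 fold change of ZnF4-/- against wild type (± SE) for Mmp14 in red and 9 tested neighbours in grey, by distance in kb along chromosome 14. Mmp14 stood at 4.49, Jub at 1.57 and the other 8 between -0.45 and 0.87.

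Apart from Mmp14, 4 of the 8 genes were tested, of which Mmp9 reached the filter only through ZnF4-/-, its mean over the other 5 libraries being 0.792 RPKM. Its test rests on a filter that its high group decided, so its calls support no count here. In all, 0 of these 4 passed in any of the 3 comparisons of the unblocked fit. The share of all tested genes that passed was 2.54% for ZnF4-/- against wild type, 0.0857% for ZnF1-/- against wild type and 2.34% between the mutants. With the replicate number as a block, Timp2 and, with that limit, Mmp9 passed as higher in ZnF4-/- than in wild type, where 8.22% of all tested genes were called and 6.10% as higher. In the blocked fit of ZnF4-/- against ZnF1-/-, which called 7.29% of all tested genes, Mmp9 alone of the 4 passed, and in that of ZnF1-/- against wild type, with 0.876%, 0 passed. At an unadjusted p under 0.05 the unblocked fit had 2 of the 4, Mmp9 and Timp2, in ZnF4-/- against wild type, 1, Mmp9, between the mutants and 0 in ZnF1-/- against wild type. The number of genes called over the table depends on single libraries. It was 267 for ZnF4-/- against wild type and 44 without ZnF4-/- replicate 2, 87 without ZnF4-/- replicate 1, 119 without wild type 2B and 164 without 2A.

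The gelatinase genes were low. Mmp2 (chromosome 8, 95351227 to 95377316), whose product cuts denatured collagen after MT1-MMP has activated it, was at 0.09, 0.18 and 0.12 RPKM in wild type replicates 1, 2A and 2B, at 0.09 and 0.12 RPKM in ZnF1-/- and at 0.36 and 0.30 RPKM in ZnF4-/-. Both ZnF4-/- values lay above all others, but the level is close to the floor. At the depth estimated for the 76 bp libraries, the values of replicate 1 stand for about 6 reads in wild type, 4 in ZnF1-/- and 7 in ZnF4-/-. Mmp2 was below the filter. When every gene of the table was tested, its log2 fold change in ZnF4-/- was 0.40 ± 0.08 (adjusted p = 0.04996 by limma).

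Mmp9 (chromosome 2, 164766280 to 164781350), the second gelatinase gene and one stored as protein in neutrophil granules, was at 0.55, 1.22 and 1.00 RPKM in wild type replicates 1, 2A and 2B, at 0.40 and 0.79 RPKM in ZnF1-/- and at 2.91 and 2.36 RPKM in ZnF4-/-. The ZnF4-/- libraries were highest and those of the other groups overlapped. The log2 fold change in ZnF4-/- was 1.16 ± 0.28 against wild type (adjusted p = 0.110 by limma, 0.0145 in the blocked fit). With no filter, where every gene of the table enters, the adjusted p was 0.103, and 0.0507 in the blocked fit. Within number 1 the log2 fold change was 1.70 and 0.83 within number 2. Without ZnF4-/- replicate 1 it was 1.04 (adjusted p = 0.552), and without replicate 2 it was 1.29 (adjusted p = 0.323). Against ZnF1-/- it was 1.54 ± 0.31 (adjusted p = 0.0555, 0.00789 in the blocked fit and 0.0247 without wild type replicate 1). In ZnF1-/- against wild type it was -0.37 ± 0.28 (adjusted p = 1.00).

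Neutrophil markers stood apart in 1 library. The 6 measured markers of 7 listed, S100a8, S100a9, Mpo, Elane, Ngp and Camp, summed to 659 RPKM in ZnF4-/- replicate 1 and to 122 RPKM in ZnF4-/- replicate 2, against 146 to 163 RPKM in wild type and 66.7 to 137 RPKM in ZnF1-/-. Of these 6 tested genes 0 passed in ZnF4-/- against wild type, where 2.54% of all tested genes did. None was at 0 in every library. Mmp8, the gene of neutrophil collagenase, was likewise highest in ZnF4-/- replicate 1, at 1.99 RPKM, and at 0.80 RPKM in replicate 2, inside the wild type range of 0.73 to 0.93 RPKM. In ZnF4-/- replicate 2, where the neutrophil sum was below the wild type range, Mmp9 was at 2.36 RPKM. The markers disagreed in that library. S100a8, S100a9, Mpo and Elane were below their wild type ranges, and Camp was inside its own, at 6.42 RPKM. Ngp was above its wild type range, at 25.25 against 20.29 to 24.73 RPKM. The part of neutrophils in the level of Mmp9 was not tested.

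The summed level of macrophage markers was also higher in ZnF4-/-, most of it from Lyz2. The 8 genes Emr1, Csf1r, Cd68, Lyz2, Mertk, C1qa, C1qb and Cd14 summed to 88.7 and 115 RPKM in ZnF4-/- replicates 1 and 2, against 49.9 to 71.4 RPKM in wild type and 41.5 to 64.0 RPKM in ZnF1-/-. Lyz2, a lysozyme gene of macrophages and neutrophils, made up 56.8 and 73.9 RPKM of the ZnF4-/- sums. The other 7 genes summed to 31.9 and 41.0 RPKM in ZnF4-/- and to 23.3 to 31.5 RPKM in wild type. Within number 1, 5 of the 8 were lower in ZnF4-/- than in wild type, and within number 2, 0 of 8. Of 6 tested, 0 passed in ZnF4-/- against wild type, where 2.54% of all tested genes did. In the blocked fit 1, C1qa, passed as higher, where 6.10% of all tested genes were higher. The part of these cells in the levels of Mmp9 and Mmp14 was not tested.

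**Figure D3:**
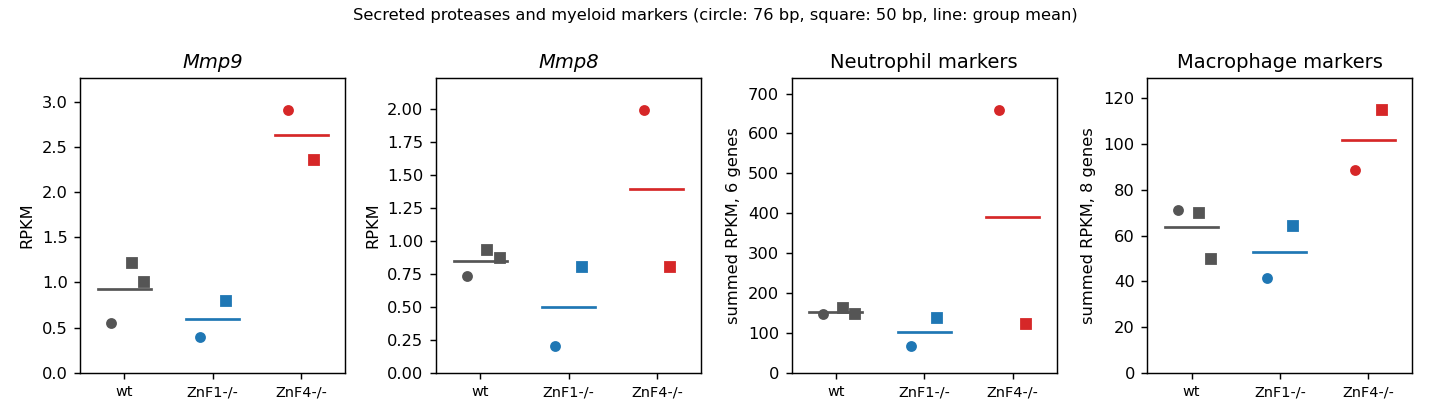
Levels of Mmp9 and Mmp8 and summed levels of 6 neutrophil and 8 macrophage markers, in RPKM, per library, with circles for 76 bp, squares for 50 bp and lines at group means. The neutrophil sum was 659 RPKM in ZnF4-/- replicate 1 and 122 RPKM in replicate 2. Mmp9 was at 2.91 and 2.36 RPKM in those libraries.

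The sheddase genes were more abundant than Mmp14 in wild type and ZnF1-/- thymus, Mmp14 being above them in ZnF4-/-, and neither passed in any comparison. Adam10 (chromosome 9, 70526804 to 70628036) was at 32.1, 33.6 and 35.2 RPKM in wild type replicates 1, 2A and 2B, at 31.3 and 31.8 RPKM in ZnF1-/- and at 29.6 and 35.5 RPKM in ZnF4-/-. The ZnF4-/- libraries spanned the wild type range, and the ZnF1-/- libraries lay just under it. Its log2 fold change was -0.05 ± 0.15 in ZnF4-/- (adjusted p = 0.986 by limma) and -0.09 ± 0.15 in ZnF1-/- (adjusted p = 1.00). The sign in ZnF4-/- was not settled, since it was 0.05 after quantile normalization and 0.08 without ZnF4-/- replicate 1.

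Adam17 (chromosome 12, 21329370 to 21379493, minus strand) was at 17.7, 20.9 and 20.1 RPKM in wild type, at 14.4 and 20.4 RPKM in ZnF1-/- and at 15.2 and 18.2 RPKM in ZnF4-/-. All groups overlapped, and in each of them the 76 bp library was the lowest. The log2 fold change was -0.22 ± 0.19 in ZnF4-/- (adjusted p = 0.905 by limma) and -0.18 ± 0.19 in ZnF1-/- (adjusted p = 1.00), where it was 0.06 without ZnF1-/- replicate 1. Its exons share 97 bases with Iah1 on the opposite strand, and the strand of the libraries is not given in the sources used here.

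**Figure D4:**
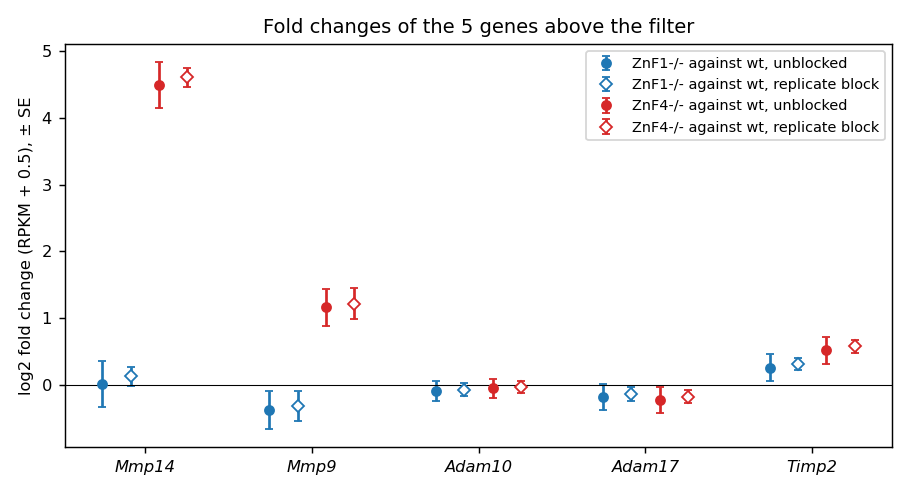
Log2 fold changes (± SE) against wild type of the 5 genes above the filter, in blue for ZnF1-/- and red for ZnF4-/-, with filled circles for the unblocked and open diamonds for the blocked fit. Mmp14 stood at 4.49 and Mmp9 at 1.16 in ZnF4-/- without the block, and Adam10 and Adam17 lay between -0.22 and -0.03 in every fit shown.

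Among the inhibitors, Timp2 was expressed and Timp1 and Timp3 were near the floor. Timp2 (chromosome 11, 118162383 to 118217054, minus strand), which both inhibits MT1-MMP and links it to the MMP2 precursor, was at 11.5, 15.9 and 14.8 RPKM in wild type replicates 1, 2A and 2B, at 14.6 and 19.1 RPKM in ZnF1-/- and at 18.3 and 22.2 RPKM in ZnF4-/-. ZnF4-/- lay above wild type without overlap and overlapped with ZnF1-/-. Within each number the order was wild type, ZnF1-/-, ZnF4-/-. The log2 fold change in ZnF4-/- was 0.52 ± 0.20 (adjusted p = 0.416 by limma, 0.00833 in the blocked fit), with 0.65 within number 1 and 0.52 within number 2. In ZnF1-/- it was 0.26 ± 0.20 (adjusted p = 1.00, 0.271 in the blocked fit), with 0.33 and 0.31 within the numbers. The difference between the mutants was 0.26 ± 0.22 (adjusted p = 0.976, 0.203 in the blocked fit). Timp2 exceeded Mmp14 per exon length in wild type, at 14.03 ± 2.27 against 2.06 ± 0.623 RPKM, and was below it in ZnF4-/-, at 20.2 ± 2.74 against 58.1 ± 23.0 RPKM.

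Timp3 (chromosome 10, 85763117 to 85812251), whose protein stays bound to the matrix, was at 0.07, 0.03 and 0.02 RPKM in wild type, at 0.01 and 0.03 RPKM in ZnF1-/- and at 0.30 and 0.23 RPKM in ZnF4-/-. Both ZnF4-/- libraries were highest, at a level that in replicate 1 stands for about 9 reads, against 7 in the deeper wild type library. With every gene tested the log2 fold change was 0.50 ± 0.06 (adjusted p = 0.0113 by limma). Timp3 lies inside Syn3 on the opposite strand, with 1733 exon bases shared, and Syn3 was at 1.19 and 0.97 RPKM in ZnF4-/- against 0.60 to 0.68 RPKM in wild type. Reads of the pair cannot be assigned without the strand.

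Timp1 (X chromosome, 20447292 to 20451861), a secreted inhibitor that acts poorly on MT1-MMP, was at 0.04, 0.08 and 0.11 RPKM in wild type, at 0 and 0.06 RPKM in ZnF1-/- and at 0.70 and 0.06 RPKM in ZnF4-/-. A single library, ZnF4-/- replicate 1, stood apart, and its value stands for about 4 reads. The other ZnF4-/- library lay inside the wild type range. With every gene tested the log2 fold change in ZnF4-/- was 0.51 ± 0.30 (adjusted p = 0.598 by limma).

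Leaving Mmp14 aside, 4 of 7 genes, Mmp2, Mmp9, Timp2 and Timp3, were higher in both ZnF4-/- libraries than in every wild type library. Of all genes measured 16.2% did so. Against ZnF1-/- the same held for 3 of the 7, Mmp2, Mmp9 and Timp3, where 18.9% of the table did so. In ZnF1-/- 0 of the 8 genes lay above wild type without overlap, against 7.54% of the table.

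Other proteases of these families were mostly near the floor. Among 20 further matrix metalloproteinase genes, 16 had a row and 3 of them were tested, and 0 passed against wild type. Of all tested genes 2.54% passed in ZnF4-/- and 0.0857% in ZnF1-/-. Mmp15, the gene of a second membrane-bound metalloproteinase, MT2-MMP, differed in the other direction from Mmp14. It was at 0.63 and 0.43 RPKM in ZnF4-/-, at 1.23, 1.59 and 1.41 RPKM in wild type and at 1.76 and 1.95 RPKM in ZnF1-/-, with no overlap between any of the groups. The log2 fold change was -0.89 ± 0.19 against wild type (adjusted p = 0.0725 by limma, 0.0208 in the blocked fit). Mmp15 fell against ZnF1-/-, by 1.20 ± 0.21 (adjusted p = 0.0331), a call that was lost in 6 of the 7 fits with 1 library left out, with adjusted p from 0.0726 to 0.204, and kept without wild type replicate 1. The other tested genes, Mmp11 and Mmp17, encode a secreted and a membrane-anchored protease, and were at 1.38 and 2.08 RPKM in wild type and 1.65 and 1.83 RPKM in ZnF4-/- (adjusted p = 0.940 and 0.980).

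Adam19, which encodes a membrane-bound protease of the same family as ADAM10, rose in ZnF4-/-. Its level was 2.54, 3.17 and 2.61 RPKM in wild type replicates 1, 2A and 2B, 1.28 and 1.73 RPKM in ZnF1-/- and 19.1 and 14.2 RPKM in ZnF4-/-. The ZnF4-/- libraries were highest and the ZnF1-/- libraries lowest, with no overlap between any of the groups. The log2 fold change was 2.38 ± 0.19 against wild type (adjusted p = 0.00204 by limma) and 3.09 ± 0.21 against ZnF1-/- (adjusted p = 0.00120), and both calls held under every alternative and without any 1 library. In ZnF1-/- against wild type it was -0.71 ± 0.19 (adjusted p = 0.659, 0.167 in the blocked fit). Among 12 further ADAM genes, 11 had a row and 5 were tested, and Adam19 was the 1 that passed, where 2.54% of all tested genes passed. The exons of Adam19 share 587 and 480 bases with the antisense transcripts Gm16033 and Gm16034, whose reads cannot be told apart from its own. The median log2 fold change of the 5 was 0.43, against -0.05 over all tested genes. Adam12 was at 6.80 ± 1.44 RPKM in ZnF4-/- and 4.88 ± 0.471 RPKM in wild type (adjusted p = 0.522), and Adam8 at 1.73 and 1.56 RPKM (adjusted p = 0.978).

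Among 19 ADAMTS genes, whose secreted products cut matrix proteins, 17 had a row and 2 were tested, with 0 called in any comparison. Of all tested genes 0.0857% to 2.54% were called, depending on the comparison. Adamts10 was at 12.4 RPKM in ZnF4-/- and 13.6 RPKM in wild type, Adamts6 at 5.87 and 4.33 RPKM, and Adamts17 was below the filter at 1.10 and 0.873 RPKM. Among 6 further inhibitors, 4 had a row and 0 reached the filter. Reck, a membrane-anchored inhibitor of MT1-MMP, was at 0.705 RPKM in ZnF4-/- and 0.637 RPKM in wild type, and the testican gene Spock2 at 0.770 and 0.403 RPKM. Spock3 and Spock1 were at 0.02 RPKM or less in every library.

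**Figure D5:**
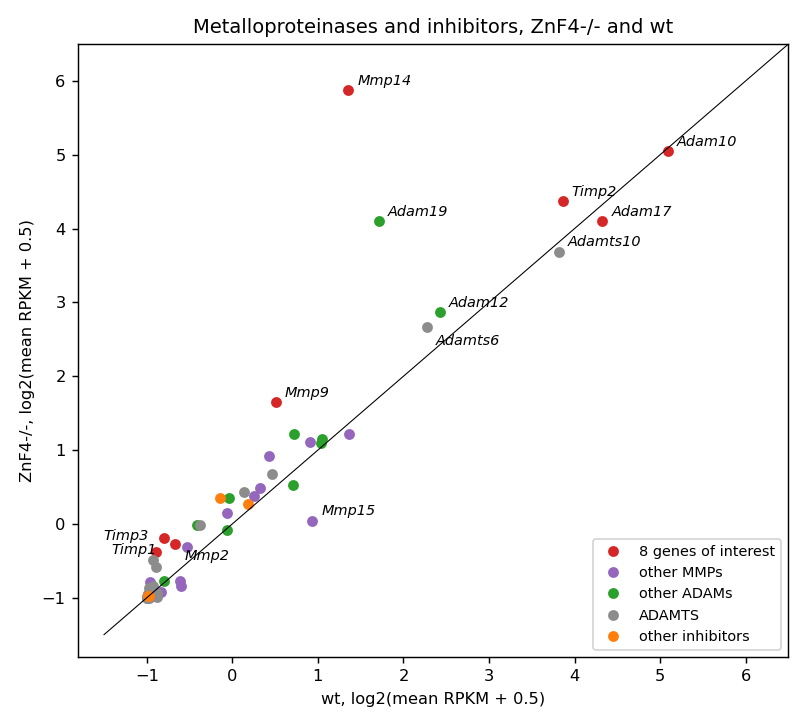
Mean level of each listed metalloproteinase or inhibitor in wild type (x) and ZnF4-/- (y), as log2(mean RPKM + 0.5), with a line at equal levels. Mmp14 and Adam19 lay well above the line, Mmp15 below it, and most other genes near the floor at the lower left.

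Partners that carry ADAM10 and ADAM17 to the cell surface were next examined. Tspan5, a tetraspanin that escorts ADAM10, rose in ZnF4-/-, from 4.95, 5.35 and 5.92 RPKM in wild type to 10.7 and 10.2 RPKM, with ZnF1-/- at 6.12 and 6.03 RPKM. ZnF4-/- lay above both other groups without overlap, and the log2 fold change against wild type was 0.90 ± 0.14 (adjusted p = 0.0177 by limma). The size held at 0.84 to 0.96 when 1 library was left out, but the call was lost without ZnF4-/- replicate 1 (adjusted p = 0.156) or 2 (0.139) and without wild type 2A (0.0721) or 2B (0.0718). Of the 8 partners 3 were tested, and 1 rose, where 2.24% of all tested genes rose. Tspan14, another escort of ADAM10, was at 24.6 RPKM in ZnF4-/- and 23.4 RPKM in wild type (adjusted p = 0.988). Rhbdf2, which encodes the ADAM17 partner iRhom2, was at 1.68 and 1.98 RPKM (adjusted p = 0.967).

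Proprotein convertases, which remove the inhibitory domain of MT1-MMP and of ADAM proteases, did not pass in any comparison, with 2 of 4 tested. The share of all tested genes that passed was 0.0857% to 2.54%, depending on the comparison. Furin was at 13.8 ± 2.05 RPKM in ZnF4-/- and 12.5 ± 4.03 RPKM in wild type (adjusted p = 0.978 by limma), and Pcsk7 at 15.3 ± 1.88 and 19.1 ± 3.10 RPKM (adjusted p = 0.779).

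Of 16 genes of proteins shed by ADAM10 or ADAM17, 10 were tested. In ZnF4-/- against wild type 0 passed, where 2.54% of all tested genes did. The median log2 fold change of the 10 was 0.37, against -0.05 over all tested genes. In the blocked fit 3 were higher, where 6.10% of all tested genes were. Notch1 was at 82.5 and 93.0 RPKM in ZnF4-/- against 34.6, 63.2 and 49.6 RPKM in wild type (0.87 ± 0.31, adjusted p = 0.356 by limma, 0.00871 in the blocked fit). Il6ra, the interleukin 6 receptor gene, was at 7.78 and 10.9 RPKM against 2.68, 5.73 and 4.43 RPKM (adjusted p = 0.170, 0.00409 in the blocked fit). Tnfrsf1b, a receptor gene for tumour necrosis factor, was at 13.3 and 17.6 RPKM against 8.34, 10.2 and 9.76 RPKM (adjusted p = 0.166, 0.00320 in the blocked fit). In all 3 genes ZnF4-/- lay above wild type without overlap, as it did in 16.2% of all genes measured. The 3 were named because they passed in the blocked fit of the same values, so this adds no separate support. Tnfrsf1a, another receptor gene for tumour necrosis factor, averaged 28.6 RPKM in ZnF4-/- and 30.4 RPKM in wild type (adjusted p = 0.986). In ZnF1-/- against wild type 0 of the 10 passed, where 0.0857% of all tested genes did. In the blocked fit, which called 0.876%, Cd44, the hyaluronan receptor gene, was higher. It was at 9.44 and 7.41 RPKM against 5.95, 4.62 and 4.33 RPKM (adjusted p = 0.614 by limma, 0.0393 in the blocked fit).

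Of 10 genes of proteins that MT1-MMP is known to cut, 4 were tested and 1 rose in ZnF4-/-, where 2.24% of all tested genes rose. This was Lrp1, an endocytic receptor gene, at 6.07 and 8.27 RPKM in ZnF4-/-, at 1.03, 1.33 and 0.74 RPKM in wild type and at 0.72 and 1.49 RPKM in ZnF1-/-. ZnF4-/- stood apart and the other groups overlapped. The log2 fold change was 2.33 ± 0.28 against wild type (adjusted p = 0.00627 by limma), with a loss of the call without ZnF4-/- replicate 2 (2.12, adjusted p = 0.0830). In ZnF1-/- it was 0.04 ± 0.28 (adjusted p = 1.00), and it changed sign without wild type 2B (-0.10) or ZnF1-/- replicate 2 (-0.31). Fn1, the fibronectin gene, varied widely within each group, at 3.17, 18.1 and 9.51 RPKM in wild type and 10.3 and 29.5 RPKM in ZnF4-/- (adjusted p = 0.932). Itgav was at 4.72 and 3.96 RPKM (adjusted p = 0.769).

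The collagen genes that MT1-MMP acts on were at 0.25 RPKM or less in every library and highest in ZnF4-/-. Col1a1 was at 0.23 and 0.25 RPKM in ZnF4-/- against 0.04 to 0.12 RPKM in wild type, Col1a2 at 0.09 and 0.18 against 0.02 to 0.05 RPKM, and Col3a1 at 0.11 and 0.09 against 0.03 to 0.06 RPKM. In these 3 genes, which were below the filter, ZnF4-/- lay above wild type without overlap, as it did in 16.2% of all genes measured. They were named after their values were seen, and their levels are close to the floor. Over the 8 fibroblast markers the sum was 4.20 to 6.12 RPKM in ZnF4-/-, 1.52 to 2.18 RPKM in wild type and 2.5 to 3.75 RPKM in ZnF1-/-, and most of it was Pdgfrb, a receptor gene of fibroblasts and mural cells. Pdgfrb rose in ZnF4-/-, to 5.62 and 3.21 RPKM from 1.13, 1.68 and 1.06 RPKM (1.43 ± 0.27, adjusted p = 0.0452 by limma), and its call was lost in each of the 7 fits with 1 library left out, with adjusted p from 0.0606 to 0.308. In ZnF1-/- Pdgfrb was at 2.30 and 3.17 RPKM, also above wild type without overlap, but passed in neither fit. Within number 2 the mutants were nearly level, at 3.21 RPKM in ZnF4-/- and 3.17 RPKM in ZnF1-/-. The other 7 markers, Col1a1, Col1a2, Col3a1, Pdgfra, Dcn, Lum and Sparc, summed to 0.50 and 0.99 RPKM in ZnF4-/- and 0.45 to 0.50 RPKM in wild type. Pdgfra was at 0 in every library.

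Markers of other cells were measured beside these results. Endothelial markers, 5 of 6 measured, summed to 48.9 to 53.7 RPKM in ZnF4-/- and 34.6 to 48.8 RPKM in wild type, with Tek and Kdr at 0.15 RPKM or less throughout. Most of these sums was Pecam1, at 36.65 and 41.77 RPKM in ZnF4-/- and 29.35 to 41.56 RPKM in wild type. Cdh5, below the filter, lay above wild type without overlap in both mutants. It was at 0.88 and 0.22 RPKM in ZnF4-/-, 0.52 and 0.39 RPKM in ZnF1-/- and 0.04 to 0.16 RPKM in wild type. Thymic epithelial markers summed to 4.59 to 6.54 RPKM in ZnF4-/- and 5.09 to 5.40 RPKM in wild type over 7 genes. Dendritic cell markers summed to 35.5 to 45.6 against 29.9 to 41.6 RPKM over 6 genes, and B cell markers to 3.53 to 6.28 against 3.68 to 4.89 RPKM over 4 genes. Most of the dendritic sum was H2-Aa, at 33.8 to 43.1 against 27.8 to 39.2 RPKM. The other dendritic markers, all below the filter, disagreed. Siglech was lower, at 0.16 and 0.06 against 0.53 to 0.96 RPKM, and Itgax higher, at 1.31 and 1.07 against 0.61 to 0.85 RPKM. Flt3 and Xcr1 had lower means in ZnF4-/-, and Zbtb46 a higher one. In ZnF4-/- against wild type 0 tested members of these 4 lists passed without the block, where 2.54% of all tested genes did. In the blocked fit, which called 8.22% of all tested genes, Eng, an endothelial receptor gene, was higher. It was at 11.3 and 11.6 RPKM against 4.99 to 6.96 RPKM (adjusted p = 0.00408 by limma). B cell markers summed to 0.80 to 1.08 RPKM in ZnF1-/-. The B cell gene Cd79a was higher in ZnF4-/- than in ZnF1-/- (adjusted p = 0.0148), and lower in ZnF1-/- than in wild type in the blocked fit (adjusted p = 0.0204). The part of these cells in the levels of Mmp14 was not tested.

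The genes whose levels followed Mmp14 most closely over the 7 libraries were Pdgfb, Irf4, Myo1e, Fjx1 and Sh3gl3, with Pearson correlations of log2 levels of 0.996, 0.996, 0.995, 0.995 and 0.995, among 10497 genes compared. Each was high in the ZnF4-/- libraries and low in the other 5, so the correlation reflects that contrast and carries no test. All but Irf4 reached the filter only through ZnF4-/-. Pdgfb, which encodes a growth factor chain, was at 2.91 and 3.81 RPKM in ZnF4-/- and 0.37 to 0.60 RPKM elsewhere. Irf4, a transcription factor gene of lymphocytes, was at 9.87 and 13.2 RPKM against 1.99 to 2.87 RPKM. Fjx1, which encodes a relative of the fly protein four-jointed, was at 4.55 and 5.17 RPKM against 0.06 to 0.27 RPKM. Among the 4 tested relatives of Mmp14 the correlation was 0.91 for Mmp9, 0.76 for Timp2, 0.05 for Adam10 and -0.23 for Adam17.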

How the data were processed

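Per the labels' protocols, RNA from strained thymus suspensions was taken up in TRI Reagent, cleaned on columns with DNase, and polyadenylated RNA was sequenced as 76 bp (replicate 1) or 50 bp single-end reads. Per the submitters' processing notes, TopHat, bedtools and build mm9 were used. The deposited RPKM values were made by the authors from exonic reads in SeqMonk with NCBI annotation, per the series design text, and transcripts of the same gene were reduced to 1. Program versions and strand are not given in the sources used here.

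Here RPKM values were log2 transformed after adding 0.5. Tests used limma 3.58.1 in R 4.3.3 (lmFit, eBayes with trend, all 3 groups together) on the 10498 genes whose average across libraries reached 1 RPKM. Residual degrees of freedom were 4, and the prior added 3.26. P values are two-sided and adjusted by Benjamini and Hochberg over all tested genes, with a threshold of 0.05. Errors of fold changes are SE, errors of levels SD. With 3 against 2 libraries a permutation test cannot go below p = 0.1, so none was run. The fit was tested on simulated data.

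The replicate number marks read length, per the labels, and sex, by Xist and Ddx3y, so the numbers pair the libraries. Deviations from group means correlated at 0.489 to 0.737 in the 8 same-number pairs of different groups. These 8 values are not independent, because in a group of 2 libraries the deviations mirror each other. ZnF1-/- with ZnF4-/- thus gave the same 0.658 under both numbers. Depth is not stated. Whole-read steps in low values (tolerance 0.006 RPKM) gave about 20130000, 14320000 and 6310000 mapped reads for the 76 bp libraries of wild type, ZnF1-/- and ZnF4-/-. These are best fits, with 60.9%, 64.4% and 67.2% of low values on steps where chance gives 26.2%, 24.5% and 17.2%. The 50 bp libraries gave no such fit, so their depth is unknown.

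Positions come from GENCODE vM1 on NCBIM37, the assembly of mm9, matched by symbol. The genes and lists were chosen with earlier results of these data known. Named genes are the 8, list members that passed in any comparison, the up to 3 highest of each list, the 10 neighbours of Mmp14 and the 5 genes closest to it in pattern. Beyond that rule, genes that passed in the blocked fit alone (Il6ra and Tnfrsf1b among them), Mmp8, Lyz2, the collagen genes and overlapping genes were named after their values were seen. Some genes that the rule names are not reported here.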

Additional observations from a re-analysis of the deposited data

How the results depend on the processing

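Over 36 named gene results, 499 of 562 recalculated values stayed the same, 30 lost and 22 gained a call, and 11 changed sign. The same meant an unchanged direction and side of the threshold. For Mmp14 in comparisons with ZnF4-/-, which carry no test, it meant a shift under the SD of its log2 level in ZnF4-/-. Of the 562 values 251 came from fits with 1 library left out. The pseudocount was 0.1 or 1 RPKM, the filter none or 3 RPKM, the scaling by median or quantile, and the replicate number a block. Mmp14 in ZnF4-/- against wild type ranged from 4.24 to 4.74 over the settings that kept every library. With 1 library left out it ranged from 4.08 to 4.90. The signs that changed were those of small values. Mmp14 in ZnF1-/- was -0.0099 after quantile normalization and -0.37 to 0.40 with 1 library left out, Adam10 in ZnF4-/- was 0.053 after quantile normalization and -0.18 to 0.076 with 1 library left out, and Adam10 against ZnF1-/- was -0.090 to 0.17. Adam17 was -0.42 to 0.061 in ZnF1-/- and -0.28 to 0.20 in ZnF4-/- against ZnF1-/-, and Lrp1 in ZnF1-/- was -0.31 to 0.39.

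Leaving Mmp14 aside, the count of the 8 genes called in ZnF4-/- against wild type was 0. It was 2 with the replicate block, 2 with no filter, 1 with median scaling and 1 with quantile normalization. Mmp9, whose calls support no count, was among the 2 with the block and was the 1 with median scaling. Against ZnF1-/- the count was 0, and 2 with no filter. It was 1 with the replicate block, a pseudocount of 1 RPKM, median scaling, quantile normalization or without wild type replicate 1. That 1 was Mmp9 each time. Median scaling and quantile normalization called 377 and 374 of all tested genes in ZnF4-/- against wild type, and 346 and 341 against ZnF1-/-. Over all genes, ZnF4-/- against wild type gave 267 calls, 863 with the replicate block, 596 with no filter, 123 with a filter at 3 RPKM, 130 with wild type 2A and 2B averaged and 44 to 253 with 1 library left out. ZnF1-/- gave 9, 92 with the replicate block, 3 with no filter, 4 with a filter at 3 RPKM, 17 with median scaling, 14 with quantile normalization, 5 with only the compared groups, 1 with 2A and 2B averaged and 1 to 10 with 1 library left out. ZnF4-/- against ZnF1-/- gave 246, 765 with the replicate block, 576 with no filter, 119 with a filter at 3 RPKM and 90 to 318 with 1 library left out. The cause of these shifts was not tested. A lone library of a mutant is assumed to vary like the other groups.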
